A study of Mus musculus with 12 samples.

Results

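The mitosis genes examined here are 36 genes whose products carry a cell from entry into mitosis to the separation of the daughter cells. They were taken from a list of names, and where several probe sets name a gene, the brightest on average over the 12 arrays stands for it. Of the 36 genes 35 were measured among 18193 genes in all; the cyclin B1 gene Ccnb1 was not analysed here. RNA came from a pair of mouse striatal cell lines made from embryonic mice. STHdhQ7/Q7 cells (Q7 cells below) come from wild-type HdhQ7/Q7 mice. STHdhQ111/Q111 cells (Q111 cells) come from HdhQ111/Q111 knock-in mice, whose huntingtin gene carries a long glutamine repeat. The lines are named for the length of that tract. Each line was a group of 3 arrays at its growth temperature of 33 °C, untreated, and another group of 3 arrays after heat shock for 6 h at 42 °C. Both lines were grown with serum and the selection drug G418 at both temperatures, as far as the labels say. The comparisons ask what heat shock did to the mitosis genes in each line, whether the lines differed in that response, and whether they differed at either temperature.

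All groups are cultures of the same 2 lines, so the huntingtin genotype and any other difference between these lines cannot be told apart. STHdh lines were immortalized with a temperature-sensitive viral oncoprotein, as general knowledge of the lines has it, and the move from 33 °C to 42 °C cannot be told apart from a change in that protein. In RNA from whole cultures, fewer dividing cells and less RNA per dividing cell cannot be told apart. Nothing in the labels says that replicates are separate cultures, so p-values measure only how these samples vary, and that variation may be technical.

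Levels are log2 values made by RMA, so a difference of 1 is a 2-fold change, and differences are given with their standard error (SE). A call means an adjusted p under 0.05 in limma, with Benjamini-Hochberg adjustment over all 18193 genes. The mean levels of the probe sets used for the 35 genes lay between 8.66 and 12.93, against a highest level of 5.14 on any array for 27 control probe sets that read bacterial RNA. That level is taken here as the edge of background; whether bacterial RNA was added to the samples is not stated. The number of arrays limits the precision. Of 9 measured markers of striatal projection neurons, 3 were above that background on every array (Foxp1, Pde10a and Rgs9), and the dopamine receptor gene Drd2 was above it on none. The lowest levels of Pde10a and Rgs9, 5.16 and 5.31, were close to its edge. Of 7 neuron markers 1 was above background on every array, with summed levels from 42.5 to 50.3 on the untreated Q7 and 37.1 to 41.0 on the untreated Q111 arrays. Stmn2 differed most between these groups (means 11.20 and 4.63), while Rbfox3 (5.27 and 5.27), Tubb3 (7.01 and 7.11) and Syp (4.95 and 5.03) were close. Of 6 astrocyte markers 2 were above background on every array. Of 9 neural progenitor markers 4 were above it on every array, and their summed log2 level ran from 73.4 to 73.9 on the untreated Q7 and from 54.9 to 57.6 on the untreated Q111 arrays; Sox2 (10.60 and 4.71) and Pax6 (9.59 and 5.00) differed, and Vim (13.80 and 13.78) and Msi1 (7.75 and 8.14) were close. Of 8 fibroblast markers 5 were above it on every array, with summed levels from 66.5 to 68.9 on the untreated and 62.4 to 62.6 on the heat-shocked Q7 arrays, and from 75.9 to 76.3 and from 67.9 to 70.9 on the Q111 arrays. No marker of oligodendrocytes, microglia or endothelium was above background on every array. The part of these marker levels in the results was not tested. The Htt level, of huntingtin RNA, differed at 33 °C by −1.29 (Q111 minus Q7; SE 0.17, limma adjusted p = 0.000265). This level does not check the length of the repeat tract. Hspa1a, the gene of the inducible chaperone Hsp70, rose by 5.48 in Q7 and 6.48 in Q111 cells, in the direction that the treatment labels give.

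Entry into mitosis is driven by Cdk1 bound to cyclins A and B and by the Polo and Aurora kinases. The spindle checkpoint then holds the cell until every chromosome is attached, when the anaphase-promoting complex with Cdc20 marks securin and cyclin B for destruction. Most of these genes are kept silent early in the cell cycle and transcribed late in it by the MuvB complexes, with p130 or p107 in the silent state and with B-Myb and FoxM1 in the active one. Those complexes recognise a promoter element called the CHR (cell cycle genes homology region), often beside CCAAT boxes bound by the factor NF-Y.

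After heat shock most mitosis genes read lower in both lines on the RMA scale. In Q111 cells, however, the direction of their median flips when arrays are centred on the median gene, to 0.16 beside 0.71 for all genes. In Q7 cells 21 of 35 genes were called lower and 0 higher, against 18.1% of all genes called lower and 12.3% called higher. In Q111 cells 18 of 35 were called lower and 1, Aurka, higher, against 28.2% lower and 20.0% higher among all genes. The median difference of the 35 genes was −0.68 in Q7 and −0.57 in Q111 cells, beside 0.0026 and −0.018 for all genes. At an unadjusted p under 0.05 limma gave 23 lower and 0 higher in Q7 cells (23.1% and 17.1% of all genes) and 20 lower and 1 higher in Q111 cells (31.1% and 24.4%). The estimates were below 0 for 32 of 35 genes in Q7 and for 31 of 35 in Q111 cells.

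Both lines had 17 of the genes called lower, which is 81% of those called in Q7 and 94.4% of those called in Q111 cells. Over all genes 79.9% of the genes called lower in Q7 cells and 51.3% of those in Q111 cells were called lower in both, so the share of the Q7 calls was near the background. The 17 genes made up 48.6% of the mitosis genes, while 14.5% of all genes were called lower in both lines. Ccnb2, Kif20a, Anln and Cdc20 were called lower in Q7 cells alone and Cdca8 in Q111 cells alone, but for none of these 5 genes was the difference between the lines' responses called.

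**Figure D1:**
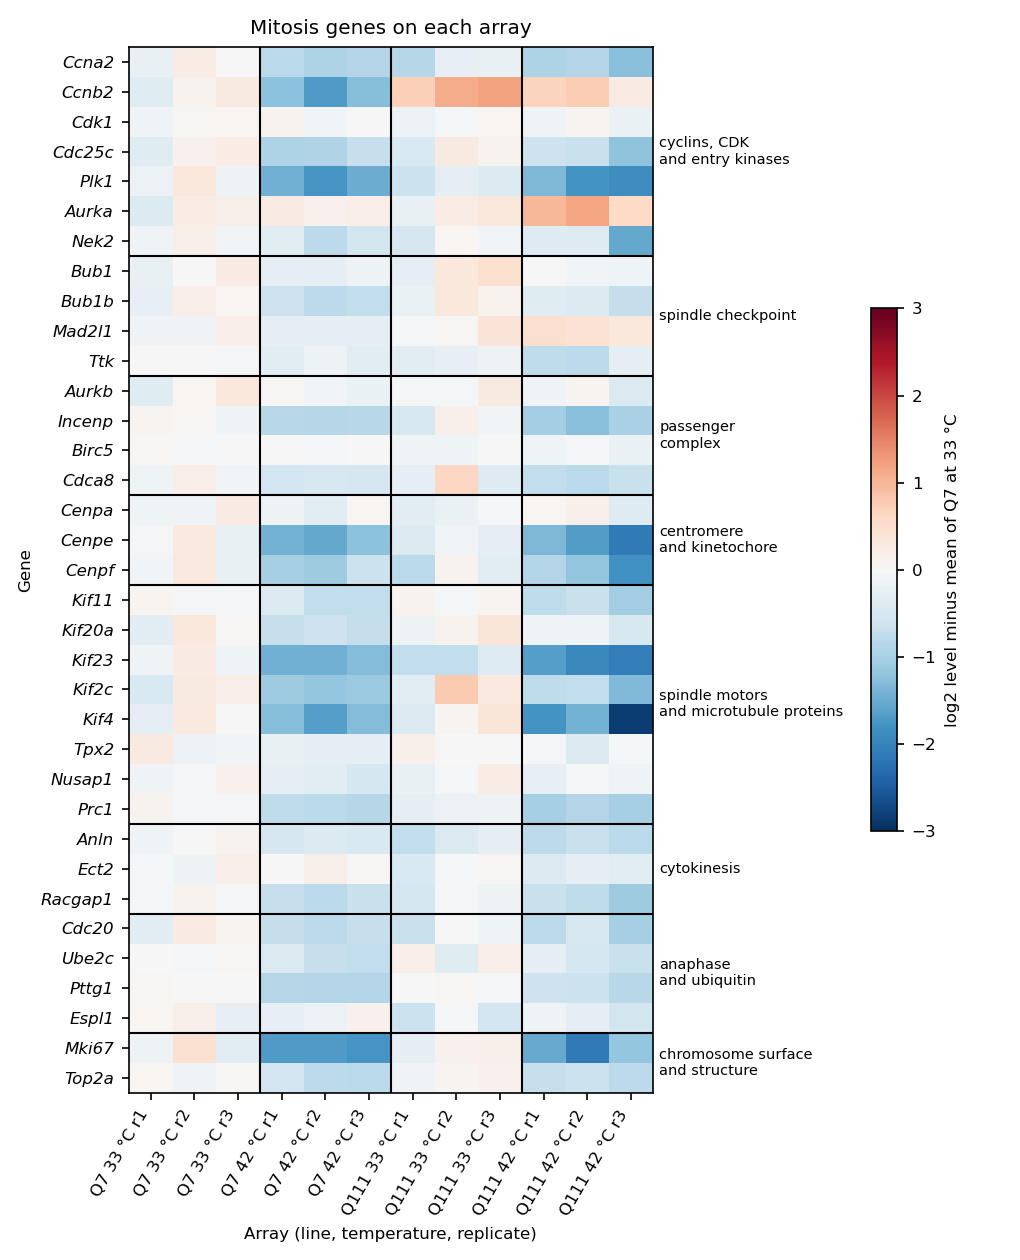
Colours show the log2 level of each of the 35 mitosis genes (rows, grouped by role) on each of the 12 arrays (columns), minus that gene's mean over the 3 untreated Q7 arrays. The heat-shocked arrays of both lines are blue in most rows, Cdk1 and Birc5 stay near 0 throughout, and Ccnb2 is red in both Q111 groups. Levels are as scaled by RMA. With arrays centred on the median gene, the median of the Q111 differences turns positive, to 0.16 beside 0.71 for all genes.

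The proximal promoters of the mitosis genes share sequence elements. The genes were not chosen by these letters, but the CHR and CCAAT elements are those described above for most of them. Their frequency here is therefore no independent result. RefSeq promoter windows from 250 bases before to 50 bases after each annotated start (mouse build GRCm38.p6) were found for 30 of the 36 genes, in 32 windows; Aurkb, Ccna2, Cdc25c, Incenp, Kif20a and Tpx2 had no entry. The CHR letters TTTGAA, read on both strands, were in 24 of 32 windows (75%), against 17.9% of all 32851 windows. The CCAAT box (CCAAT on both strands) was in 26 of 32 windows (81.2%), against 37.4% of all. Both elements together were in 22 windows (68.8%), against 6.95% of all. Of 31 CHR matches 23 lay within 50 bases of the start. The overlapping windows of Ect2 and of Prc1 count the same letters again, and no share over all windows was taken for this closeness. Matches to the E2F element (TTTGGCGC or TTTCCCGC) were found in 0 of 32 windows, against 1.56% of all windows. The heat shock element GAANNTTC was in 3 windows, of Birc5, Top2a and Ttk (9.38%), near the 7.86% of all windows. The farther of the Top2a CHR matches, which begins at position −179, and the CHR match of Ttk each overlap a heat shock element match, and the CHR match of Cdca8 overlaps a CCAAT match. A match is a run of letters and says nothing of binding.

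The 160 bases before the start are shown for 4 genes called lower in both lines (Mki67, Top2a, Kif11 and Ube2c), for Ccnb2, whose level differed most between the lines, for Cdk1, which was called in no comparison, and for Aurka, which rose in Q111 cells. They are read 5′ to 3′ along the gene's strand and end at the base before the start, and capitals mark CHR and CCAAT letters as searched, on either strand. Their positions are chr7:135716380-135716539 (minus strand) for Mki67, chr11:99024190-99024349 (minus) for Top2a, chr19:37376222-37376381 (plus) for Kif11, chr2:164769769-164769928 (plus) for Ube2c, chr9:70421555-70421714 (minus) for Ccnb2, chr10:69352913-69353072 (minus) for Cdk1 and chr2:172370571-172370730 (minus) for Aurka.
Mki67: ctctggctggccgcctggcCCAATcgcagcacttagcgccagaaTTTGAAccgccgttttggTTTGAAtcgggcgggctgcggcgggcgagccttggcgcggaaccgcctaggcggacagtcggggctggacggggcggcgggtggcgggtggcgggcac
Top2a: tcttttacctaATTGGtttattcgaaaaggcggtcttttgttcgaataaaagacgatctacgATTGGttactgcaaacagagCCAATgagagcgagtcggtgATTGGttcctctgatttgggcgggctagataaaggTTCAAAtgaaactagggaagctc
Kif11: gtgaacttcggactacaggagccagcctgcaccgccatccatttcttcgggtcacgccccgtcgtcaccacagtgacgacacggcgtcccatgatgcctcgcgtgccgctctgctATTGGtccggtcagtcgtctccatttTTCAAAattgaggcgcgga
Ube2c: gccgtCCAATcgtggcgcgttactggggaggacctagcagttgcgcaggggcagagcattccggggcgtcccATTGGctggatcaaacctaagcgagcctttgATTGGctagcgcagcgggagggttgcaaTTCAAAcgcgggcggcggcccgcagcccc
Ccnb2: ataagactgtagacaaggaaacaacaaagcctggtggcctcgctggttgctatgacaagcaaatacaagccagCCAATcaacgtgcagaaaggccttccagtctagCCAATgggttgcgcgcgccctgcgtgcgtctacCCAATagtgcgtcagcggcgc
Cdk1: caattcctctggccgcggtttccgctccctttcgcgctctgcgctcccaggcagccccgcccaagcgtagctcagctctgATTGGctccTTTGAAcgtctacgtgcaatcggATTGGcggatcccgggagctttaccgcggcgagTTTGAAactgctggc
Aurka: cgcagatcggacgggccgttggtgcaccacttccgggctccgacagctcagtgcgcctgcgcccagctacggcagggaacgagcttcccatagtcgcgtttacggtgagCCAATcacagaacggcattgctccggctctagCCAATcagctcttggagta
Mki67 and Cdk1 each hold a pair of CHR letters within this stretch, and both hold CCAAT letters; Mki67 was called lower in both lines and Cdk1 in neither. Ccnb2 carries 3 CCAAT boxes, beginning at positions −87, −54 and −21 from the start, and its nearer CHR lies past the start at positions 5 to 10. Aurka likewise has CCAAT boxes at −51 and −19 and its CHR at positions 33 to 38, outside the bases shown. Among genes with a window, CHR letters were found for 12 of the 14 called lower in both lines, for 4 of the 4 called lower in 1 line and for 6 of the 11 called lower in neither; these counts are a description with no test.

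Among the cyclins, Cdk1 and the entry kinases, 4 of 7 were called lower in Q7 and 3 of 7 in Q111 cells. For this and every role group below, the shares of all genes called lower were 18.1% in Q7 and 28.2% in Q111 cells. Plk1, the Polo kinase that acts from centrosome maturation to cytokinesis, changed most of these. Plk1 was at 10.15, 10.68 and 10.17 on the untreated Q7 arrays and at 8.88, 8.56 and 8.84 after heat shock. In Q111 cells it was at 9.68, 10.04 and 9.92 untreated and at 8.98, 8.54 and 8.47 after heat shock. Every heat-shocked array was below every untreated array of its line. The differences were −1.57 in Q7 and −1.22 in Q111 cells (SE 0.19 each, limma adjusted p = 0.000155 and 0.000486), which are falls of 2.98-fold and 2.32-fold. Ccna2, cyclin A2, which binds Cdk1 and Cdk2, fell, with differences of −0.87 and −0.58 (limma adjusted p = 0.00528 and 0.0275). Cdc25c, the phosphatase that removes the inhibitory phosphates of Cdk1, fell, with differences of −0.83 and −0.80 (adjusted p = 0.0171 and 0.0141). Nek2, a kinase of centrosome separation, had differences of −0.54 and −0.60 that were not called (adjusted p = 0.184 and 0.104).

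Cdk1, the kinase at the centre of this group, was called in neither line. Cdk1 read 12.67, 12.80 and 12.82 on the untreated Q7 arrays and 12.87, 12.67 and 12.78 after heat shock. In the other line it read 12.58, 12.70 and 12.81 untreated and 12.66, 12.83 and 12.57 after heat shock. All 4 groups overlapped. The difference was 0.01 in Q7 cells with a 95% interval from −0.27 to 0.29, and −0.01 in Q111 cells with an interval from −0.29 to 0.27, so falls of the size seen for Plk1 lie outside both intervals.

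Cyclin B2 (Ccnb2), a mitotic partner of Cdk1, responded in Q7 cells and stood higher in Q111 cells. Ccnb2 was at 9.92, 10.39 and 10.55 on the untreated Q7 arrays and at 9.05, 8.58 and 9.01 after heat shock. On the Q111 arrays it was at 11.00, 11.40 and 11.50 untreated and at 10.95, 11.06 and 10.53 after heat shock. The Q7 groups did not overlap, the Q111 groups did, and every Q111 array but 1 heat-shocked one was above every Q7 array. The heat shock difference was −1.41 in Q7 cells (SE 0.22, limma adjusted p = 0.000654) and −0.45 in Q111 cells (adjusted p = 0.11). The difference between these responses was 0.96 (SE 0.31), with an unadjusted p of 0.0105 and a limma adjusted p of 0.102, so it was not called.

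Aurka, the Aurora kinase of centrosomes and spindle poles, was the 1 mitosis gene called higher. Aurka read 10.21, 10.83 and 10.79 on the untreated Q7 arrays and 10.86, 10.74 and 10.82 after heat shock. In Q111 cells it read 10.38, 10.83 and 10.94 untreated and 11.60, 11.79 and 11.20 after heat shock. The Q7 groups overlapped, and every heat-shocked Q111 array was above every untreated one. The rise was 0.81 in Q111 cells (SE 0.22, limma adjusted p = 0.00988) and the difference 0.20 in Q7 cells (adjusted p = 0.549). The difference between these responses was 0.61 with a 95% interval from −0.06 to 1.29, and it was not called.

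**Figure D2:**
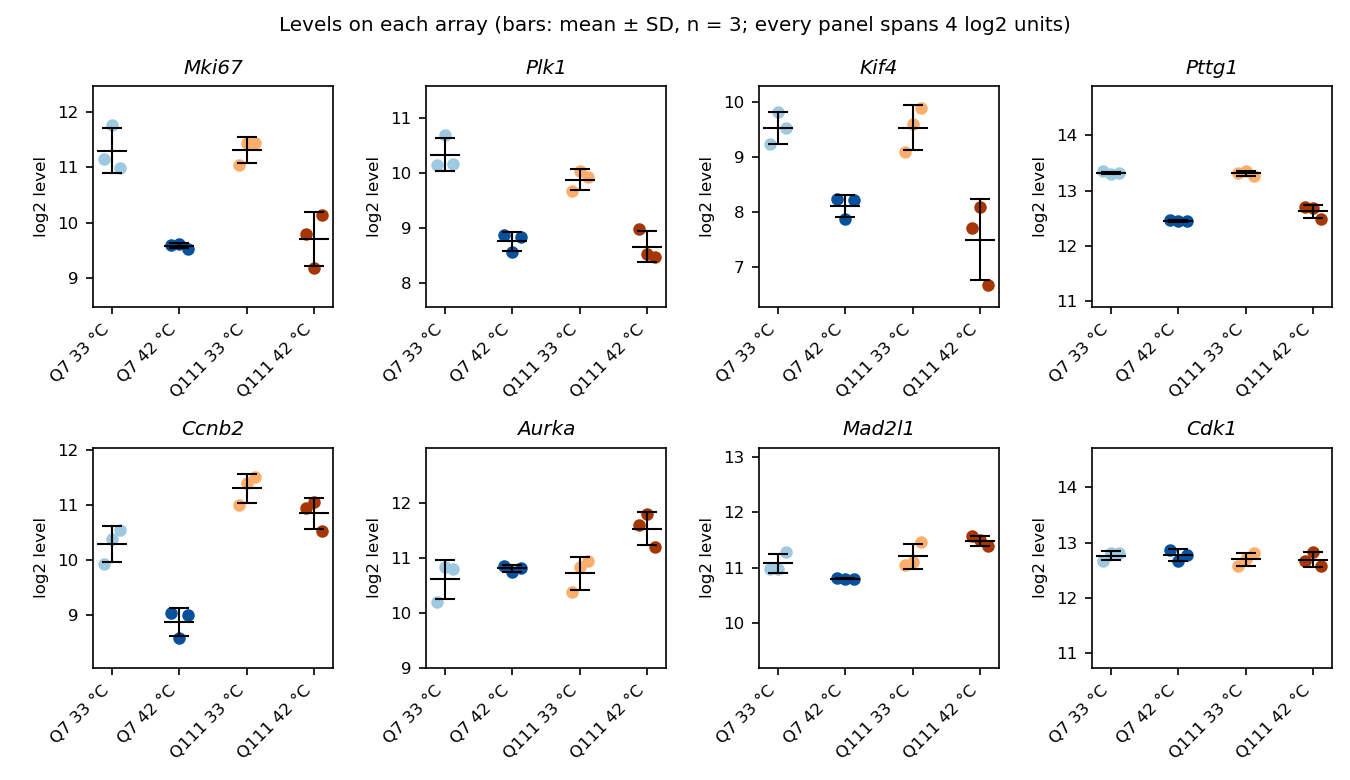
Points are log2 levels on single arrays for 8 mitosis genes in the 4 groups, with the mean and SD of 3 arrays as bars; each panel spans 4 log2 units at its own height. Mki67, Plk1, Kif4 and Pttg1 are lower after heat shock in both lines, Cdk1 is level, and Ccnb2, Aurka and Mad2l1 stand higher in heat-shocked Q111 than in heat-shocked Q7 cells.

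Of the 4 spindle checkpoint genes, Bub1b was called lower in each line and no other was called. A count of 1 of 4 was near the share of all genes called lower in both lines. Bub1b encodes BubR1, a part of the mitotic checkpoint complex that restrains Cdc20. Bub1b was at 10.27, 10.72 and 10.57 on the untreated Q7 arrays and at 9.91, 9.74 and 9.78 after heat shock. In the other line it was at 10.32, 10.84 and 10.62 untreated and at 10.16, 10.10 and 9.81 after heat shock. Neither line's groups overlapped, and the differences were −0.71 and −0.57 (SE 0.17, limma adjusted p = 0.0092 and 0.019). The kinase genes Bub1 and Ttk had differences of −0.23 and −0.27 in Q7 and −0.24 and −0.36 in Q111 cells. Mad2l1, the checkpoint protein that binds Cdc20, had a difference of −0.28 in Q7 and 0.28 in Q111 cells, neither of them called; the difference between these was 0.56 (SE 0.21) with a limma adjusted p of 0.145.

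The chromosomal passenger complex joins the kinase Aurkb to the scaffold Incenp, to survivin (Birc5) and to borealin (Cdca8). Incenp was called lower in both lines and Cdca8 in Q111 cells. In Q7 cells that is 1 of 4 genes, near the share of all genes called lower. Incenp was at 12.27, 12.22 and 12.04 on the untreated Q7 arrays and at 11.34, 11.33 and 11.36 after heat shock. On the Q111 arrays it was at 11.71, 12.33 and 12.09 untreated and at 11.16, 10.92 and 11.21 after heat shock. The groups of each line were apart, with differences of −0.84 and −0.95 (limma adjusted p = 0.0026 and 0.000797). The Cdca8 difference was −0.52 in Q7 (adjusted p = 0.107) and −0.73 in Q111 cells (adjusted p = 0.0201). Aurkb and Birc5 were called in neither line. Birc5 differed by −0.01 in Q7 cells, with a 95% interval from −0.25 to 0.24, and by −0.03 in Q111 cells (−0.28 to 0.21). Aurkb differed by −0.08 and −0.22, with intervals from −0.50 to 0.34 and from −0.64 to 0.20.

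At centromeres and kinetochores, Cenpe and Cenpf were called lower in both lines. Cenpe is the kinesin that brings chromosomes to the spindle equator. Cenpe was at 10.29, 10.64 and 10.12 on the untreated Q7 arrays and at 8.94, 8.82 and 9.11 after heat shock. In Q111 cells it was at 9.92, 10.28 and 10.09 untreated and at 9.01, 8.68 and 8.23 after heat shock. Heat-shocked arrays were lower than untreated ones throughout, with differences of −1.39 and −1.46 (SE 0.21, limma adjusted p = 0.000504 and 0.000242). Cenpf, a large protein of the outer kinetochore, fell, with differences of −0.90 and −0.94 (adjusted p = 0.0293 and 0.0162). Cenpa, the histone variant that marks the centromere itself, differed by −0.14 and 0.14 and was not called.

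Of the spindle motors and microtubule proteins 6 of 8 were called lower in Q7 and 5 of 8 in Q111 cells. Kif23 is the motor of centralspindlin, the complex that organizes the spindle midzone. Kif23 was at 10.94, 11.28 and 10.91 on the untreated Q7 arrays and at 9.60, 9.61 and 9.74 after heat shock. In the other line it was at 10.30, 10.30 and 10.65 untreated and at 9.38, 9.11 and 8.97 after heat shock. The groups of each line were far apart, with differences of −1.40 and −1.26 (SE 0.16, limma adjusted p = 0.000104 and 0.00012). The chromokinesin Kif4, a motor carried on chromosome arms, was at 9.22, 9.81 and 9.52 on the untreated Q7 arrays and at 8.23, 7.87 and 8.22 after heat shock. On the Q111 arrays Kif4 was at 9.08, 9.60 and 9.89 untreated and at 7.72, 8.09 and 6.67 after heat shock. Heat-shocked arrays were again below untreated ones, with 1 heat-shocked Q111 array well under its group. The differences of Kif4 were −1.41 and −2.03 (SE 0.33, limma adjusted p = 0.00721 and 0.000529).

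Kif2c, a kinesin that takes microtubule ends apart, fell, with differences of −1.12 and −1.20 (limma adjusted p = 0.0105 and 0.005). Kif11, which pushes the spindle poles apart, fell, with differences of −0.62 and −0.86 (adjusted p = 0.0071 and 0.00067). Prc1, which bundles microtubules of the midzone, fell, with differences of −0.80 and −0.76 (adjusted p = 0.000347 and 0.000294). Kif20a, a midzone kinesin, fell by 0.68 in Q7 cells (adjusted p = 0.0186), and its difference was −0.34 in Q111 cells (adjusted p = 0.16). Tpx2, which activates Aurka on the spindle, had differences of −0.26 and −0.23. Nusap1, which binds spindle microtubules, had differences of −0.38 and −0.12. Neither gene was called in either line.

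For cytokinesis, Racgap1, the partner of Kif23 in centralspindlin, was called lower in both lines. Racgap1 was at 11.70, 11.84 and 11.67 on the untreated Q7 arrays and at 11.05, 10.93 and 11.06 after heat shock. On the Q111 arrays it was at 11.22, 11.70 and 11.59 untreated and at 11.08, 10.98 and 10.68 after heat shock. The groups did not overlap in either line, and the differences were −0.72 and −0.59 (limma adjusted p = 0.00478 and 0.0101). Anln, a scaffold of the contractile ring, fell by 0.46 in Q7 cells (adjusted p = 0.0284) and differed by −0.27 in Q111 cells (adjusted p = 0.134). Ect2, the exchange factor that switches on RhoA at the division plane, differed by 0.08 and −0.19 and was not called.

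Of the genes for anaphase and ubiquitin transfer, 3 of 4 were called lower in Q7 and 2 of 4 in Q111 cells. Securin (Pttg1) holds separase inactive until anaphase. Pttg1 was at 13.35, 13.30 and 13.31 on the untreated Q7 arrays and at 12.47, 12.44 and 12.45 after heat shock. In Q111 cells it was at 13.32, 13.35 and 13.27 untreated and at 12.71, 12.68 and 12.49 after heat shock. The untreated arrays of the lines overlapped and all heat-shocked ones were lower, with differences of −0.86 and −0.69 (SE 0.11, limma adjusted p = 0.000206 and 0.000544). Ube2c, the ubiquitin-conjugating enzyme of the anaphase-promoting complex, fell, with differences of −0.62 and −0.51 (adjusted p = 0.0187 and 0.0314). Cdc20, its activator, fell by 0.73 in Q7 cells (adjusted p = 0.021) and differed by −0.50 in Q111 cells (adjusted p = 0.0685). Espl1, the protease separase itself, differed by −0.09 and 0.10 and was not called.

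Mki67, which coats mitotic chromosomes and is a common marker of dividing cells, had the largest fall of the 35 genes in Q7 cells; in Q111 cells that of Kif4 was larger. Mki67 was at 11.16, 11.77 and 10.99 on the untreated Q7 arrays and at 9.60, 9.61 and 9.53 after heat shock. In the other line it was at 11.04, 11.44 and 11.45 untreated and at 9.79, 9.19 and 10.14 after heat shock. All heat-shocked arrays were below all untreated ones. The differences were −1.72 and −1.60 (SE 0.26, limma adjusted p = 0.000465 and 0.000459), which is 3.31-fold and 3.04-fold. Top2a, the topoisomerase that untangles sister chromatids, fell, with differences of −0.72 and −0.73 (adjusted p = 0.00126 and 0.000744).

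**Figure D3:**
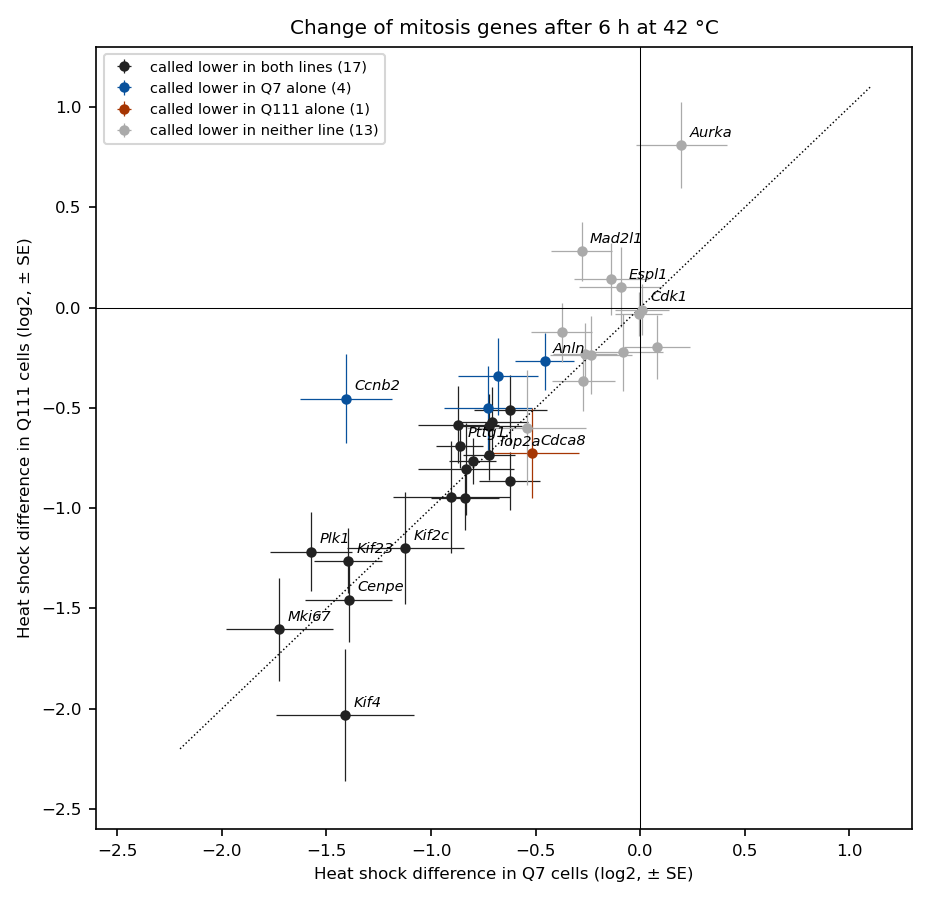
Each point is 1 of the 35 mitosis genes, placed by its heat shock difference in Q7 cells (horizontal) and in Q111 cells (vertical), both log2 with bars of 1 SE; the dotted line marks equal differences. The 17 genes called lower in both lines lie at the lower left, Aurka is the gene at the top, and Ccnb2 lies farthest to the left of the line. With arrays centred on the median gene all points would move up by 0.73 and right by 0.35.

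The 13 genes called lower in neither line were Cdk1, Aurka, Nek2, Bub1, Mad2l1, Ttk, Aurkb, Birc5, Cenpa, Tpx2, Nusap1, Ect2 and Espl1. Arrays did not overlap between the groups, with heat shock below, for 27 of 35 genes in Q7 cells (27.6% of all genes) and for 18 in Q111 cells (30.5% of all genes). With 1 array left out at a time, 15 of the 21 genes called lower in Q7 cells kept the call in all 12 fits, and 14 of the 19 genes called in Q111 cells did. The calls that were lost at least once were those of Anln, Cdc20, Cdc25c, Cenpf, Kif20a and Ube2c in Q7 cells and those of Bub1b, Ccna2, Cdc25c, Cenpf and Ube2c in Q111 cells. In Q7 cells 20, 16 and 16 genes were called lower without untreated array 1, 2 or 3, and 19, 16 and 17 without heat-shocked array 1, 2 or 3. In Q111 cells these counts were 20, 14 and 15 without an untreated array and 18, 18 and 15 without a heat-shocked one.

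A pair of Q111 arrays stood apart from their groups over many of the 35 genes. Untreated replicate 1 was the lowest of its group for 27 genes; on it Cdkn1a, the gene of the cyclin-dependent kinase inhibitor p21, was at 11.03, against 9.98 and 9.94 on the other two. Heat-shocked replicate 3 was the lowest of its group for 28 genes. Their part in the results, other than the counts without them, was not tested.

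The size of these falls depended on how the arrays were scaled. The level of the median gene was 7.37 ± 0.09 in untreated and 7.01 ± 0.19 in heat-shocked Q7 cells, and 7.36 ± 0.08 and 6.64 ± 0.18 in Q111 cells (SD, n = 3). Centring every array on its median gene moved all differences up by 0.35 in Q7 and by 0.73 in Q111 cells. The mitosis genes were then 10 lower and 1 higher in Q7 cells, beside 11.3% lower and 26.6% higher among all genes, and 5 lower and 11 higher in Q111 cells, beside 12.9% and 60.4%. Their median became −0.33 in Q7 and 0.16 in Q111 cells, while the median of all genes became 0.35 and 0.71. The direction in Q111 cells thus flips under this scaling, and the median of the mitosis genes lay 0.68 and 0.55 below that of all genes with it. Centring on 46 ribosomal protein genes gave 22 lower and 0 higher in Q7 cells and 24 lower and 1 higher in Q111 cells, against 20.3% and 33.7% of all genes called lower. Further quantile normalization gave 21 and 0, and 16 and 1, against 16.8% and 26% of all genes called lower. Called lower in both lines under each of these scalings were 5 genes, Plk1, Cenpe, Kif23, Kif4 and Mki67. In Q7 cells 10 genes kept their call under each, namely these 5 and Ccna2, Ccnb2, Kif2c, Prc1 and Pttg1.

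A sign of RNA quality moved with heat shock. The actin control probe sets read the 3′ end above the 5′ end by 0.54 ± 0.16 in untreated and 1.48 ± 0.12 in heat-shocked Q7 cells, and by 0.72 ± 0.36 and 1.25 ± 0.23 in Q111 cells (SD, n = 3). With this measure as a covariate, limma called 0 mitosis genes lower in Q7 cells, where 13 reached an unadjusted p under 0.05 and 1.01% of all genes were called lower. It called 12 lower in Q111 cells, where 16 reached an unadjusted p under 0.05 and 16.4% of all genes were called lower. The median difference was −0.75 in Q7 cells with a median SE of 0.37, against −0.68 and 0.18 without the covariate, and −0.59 with a median SE of 0.26 in Q111 cells. On the Q7 arrays the measure ran from 0.38 to 0.69 untreated and from 1.35 to 1.60 after heat shock. With no overlap, this fit can hardly tell it apart from heat shock in Q7 cells.

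Between the lines at 33 °C few mitosis genes differed. Ccnb2 was higher in Q111 cells by 1.01 (SE 0.22, limma adjusted p = 0.0104), and Kif23 and Anln were lower, with differences of −0.63 (SE 0.16, adjusted p = 0.0279) and −0.48 (SE 0.14, adjusted p = 0.0482). That is 2 lower and 1 higher of 35 genes, against 5.68% and 5.11% of all genes, so the counts were near the background. Anln read 11.15, 11.25 and 11.36 on the untreated Q7 and 10.51, 10.82 and 10.97 on the untreated Q111 arrays, with no overlap. The median over the 35 genes was −0.03. Untreated arrays with the same replicate number deviated together between the lines, and with the replicate number as a block limma called 0 genes lower and 1 higher. That block was fitted over all 12 arrays, so it is not a paired test of the untreated groups alone. Kif23 lost its call without untreated Q7 replicate 2 (difference −0.51) or untreated Q111 replicate 1 or 2 (−0.57 each). Ccnb2 lost it without untreated Q111 replicate 3 (0.91, adjusted p = 0.0509; its adjusted p over all alternatives ran from 0.00223 to 0.0509), and Anln lost it in 10 of the 12 fits that left out an array, all but those without untreated or heat-shocked Q111 replicate 3. The Anln difference ran from −0.59 to −0.35 over the 12 fits.

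After heat shock 3 of 35 genes were higher in Q111 than in Q7 cells and 1 was lower, against 6.58% higher and 15.5% lower among all genes. Ccnb2 was 1.97 higher (SE 0.22, limma adjusted p = 9.89e-05), 3.91-fold, with every heat-shocked Q111 array above every heat-shocked Q7 array. Mad2l1 was at 11.56, 11.50 and 11.39 on the heat-shocked Q111 arrays and at 10.80, 10.79 and 10.80 on the heat-shocked Q7 arrays. These did not overlap, and the difference was 0.69 (SE 0.15, adjusted p = 0.0061). Aurka was higher by 0.72 (adjusted p = 0.0335) and Kif23 lower, with a difference of −0.49 (adjusted p = 0.0498). The calls of Ccnb2 and Mad2l1 were kept without any 1 array, whereas Aurka lost its call in 5 of the 12 fits, those without any 1 heat-shocked Q7 array or without heat-shocked Q111 replicate 1 or 2 (0.59 to 0.75). Kif23 lost its call in 9 of them, all but those without untreated Q7 replicate 2, untreated Q111 replicate 3 or heat-shocked Q111 replicate 1, and its difference ran from −0.61 to −0.40 over the 12. With the replicate number as a block 0 genes were lower and 3 higher. With the arrays centred on the median gene 7 genes were higher and 0 lower, against 25.1% and 9.48% of all genes.

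**Figure D4:**
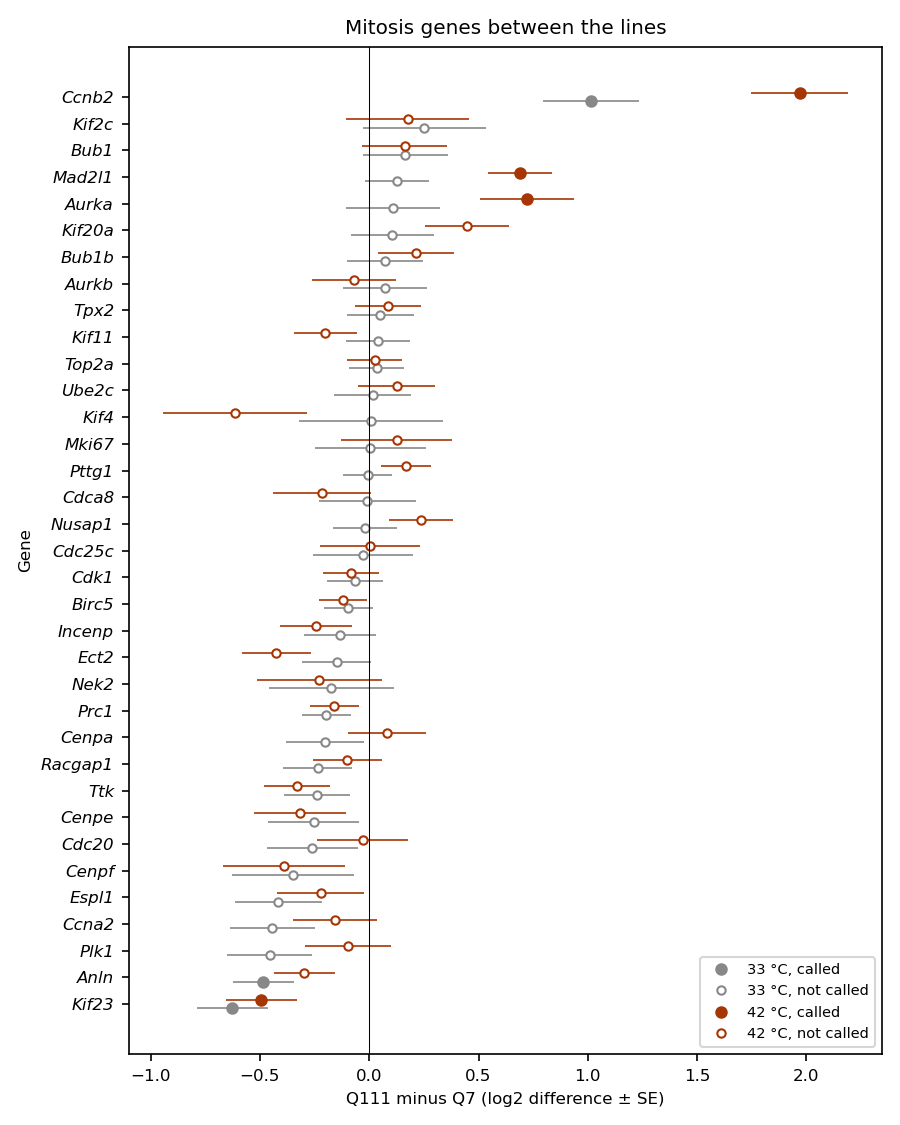
Points are the log2 differences between Q111 and Q7 cells (Q111 minus Q7) with bars of 1 SE for each of the 35 mitosis genes, at 33 °C in grey and after heat shock at 42 °C in brown; filled points were called. Ccnb2 stands apart at the right at both temperatures, and most other genes lie around 0.

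No mitosis gene, read by its brightest probe set, had a called difference between the heat shock responses of the lines. Of the other probe sets of these genes above background, 1 was called lower, for which no share over all probe sets was taken. Of the 35 genes 0 were lower and 0 higher by limma, against 4.51% and 1.21% of all genes, and at an unadjusted p under 0.05 there were 0 lower and 2 higher, Ccnb2 and Mad2l1, against 14.8% and 6.34% of all genes, so the count of higher genes was near the background. Ccnb2 was called when arrays were weighted by quality or centred on the median gene. The median over the 35 genes was 0.04 with a median SE of 0.25. The 95% interval of the difference ran from 0.27 to 1.64 for Ccnb2 and from 0.11 to 1.02 for Mad2l1.

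Other probe sets of the same genes were read in the same way. The table held 78 probe sets naming a mitosis gene, and 24 genes had more than 1. Of 43 probe sets not used above, 9 were in background range and 34, of 23 genes, were above it. In Q7 cells 28 of these 34 had the same sign as the probe set used, 17 were called lower and 2 higher in a fit over all probe sets. In Q111 cells 29 had the same sign, 18 were called lower and 2 higher. For the difference between the lines' responses 1 of these 34 was called lower and 0 higher. Between the lines 1 was lower and 0 higher after heat shock, and 0 were called at 33 °C. No share of calls over all probe sets was taken in that fit, so these counts are not set against a background.

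Bub1, not called above, had another, dimmer probe set that was called lower in both lines. It fell from 6.54, 6.67 and 6.18 to 5.17, 4.68 and 4.64 on the Q7 arrays and from 6.92, 7.89 and 7.12 to 5.41, 5.70 and 4.79 on the Q111 arrays, reaching the edge of background, so the size of its fall has only a bound. Tpx2 likewise had another probe set, called lower in both lines (−0.94 and −0.51). Dimmer probe sets of Cenpe and Cenpf were called lower in both lines too, down to levels of 4.36 and 4.70 on single Q111 arrays, which are under that edge, and no size is given for them. These genes were named after their values were seen.

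The dimmer probe set of Nusap1 went the other way. It was at 4.63, 5.36 and 4.97 on the untreated Q7 arrays and at 7.78, 7.49 and 7.70 after heat shock. On the Q111 arrays it was at 5.31, 5.39 and 5.96 untreated and at 8.18, 8.47 and 8.29 after heat shock. It rose in both lines with no overlap (limma adjusted p = 1.48e-05 and 8.08e-06). Its untreated Q7 levels lay at the edge of background, so no exact size is given for that rise; in Q111 cells it rose by 2.76 (SE 0.22). Another Top2a probe set rose by 1.39 in Q111 cells (SE 0.24, limma adjusted p = 0.000919), and another Pttg1 probe set rose by 0.80 in Q7 cells (SE 0.23, adjusted p = 0.0198), each against a called fall of the probe set used. In Q111 cells that Pttg1 probe set went the other way. It was at 8.42, 8.13 and 7.90 on the untreated Q111 arrays and at 7.61, 7.58 and 7.69 after heat shock. Which transcripts these probe sets read was not tested.

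**Figure D5:**
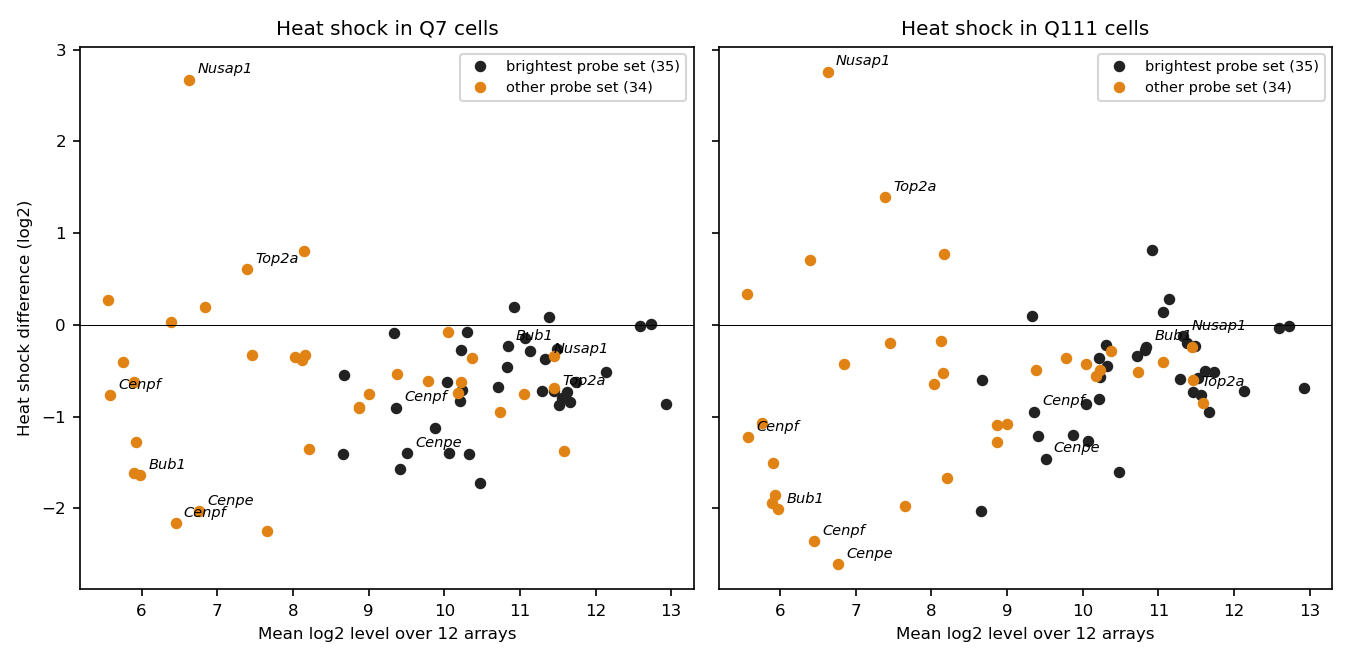
Each point is a probe set of a mitosis gene, placed by its mean log2 level over 12 arrays (horizontal) and its log2 heat shock difference (vertical) in Q7 cells (left) and Q111 cells (right); black points are the brightest probe set of each of 35 genes, orange points the 34 others above background. Most points of both colours lie below 0, and the dimmer Nusap1 probe set stands alone at the top.

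The regulators that transcribe mitosis genes were counted beside them. Among all genes 18.1% were called lower and 12.3% higher in Q7 cells, and 28.2% and 20.0% in Q111 cells. Of 22 genes of the MuvB, B-Myb, FoxM1, E2F, retinoblastoma and NF-Y families, 2 were called lower and 6 higher in Q7 cells, with a median of 0.19, and 11 lower and 4 higher in Q111 cells, with a median of −0.56. The B-Myb gene Mybl2 and Foxm1 were called in neither line (0.37 and 0.22 in Q7, −0.27 and −0.14 in Q111 cells). The MuvB subunit gene Lin54 rose by 1.28 in Q7 (limma adjusted p = 0.00013) and 0.69 in Q111 cells. Lin52, of the same complex, was called higher in both lines, to means of 7.20 and 6.47 from untreated means of 5.12 and 5.02 that were not above background, so the size of its rise has only a bound. The subunit genes did not all move alike. Lin9 went from a mean of 9.57 to 10.66 in Q7 and from 9.84 to 10.90 in Q111 cells. Lin37 went from 10.68 to 10.91 and from 10.68 to 10.01, and Rbbp4 from 13.27 to 13.43 and from 13.46 to 13.49. In Q111 cells E2f3, E2f7 and Rbl2 (p130) fell, with differences of −2.09, −1.76 and −1.67 (adjusted p = 7.46e-06, 0.000178 and 0.000316). The retinoblastoma gene Rb1 rose by 1.27 in Q7 cells and fell by 0.96 in Q111 cells, a difference of −2.23 (SE 0.26, limma adjusted p = 0.00209). E2f7 and E2f3 also differed between the responses, by −1.64 and −1.48 (adjusted p = 0.0202 and 0.00696). With arrays centred on the median gene the list had 0 lower and 11 higher in Q7 cells and 4 lower and 8 higher in Q111 cells, where its median turned to 0.16. All genes then had 11.3% lower and 26.6% higher in Q7 cells, and 12.9% and 60.4% in Q111 cells.

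The rest of the mitotic machinery was counted in the same way. For every list here and below, the shares of all genes were 18.1% lower and 12.3% higher in Q7 cells. In Q111 cells they were 28.2% and 20.0%. Of 32 other kinetochore and checkpoint genes 3 were called lower and 7 higher in Q7 cells, and 9 lower and 5 higher in Q111 cells. The count of lower genes in Q111 cells was thus near the background. Mad1l1, which recruits Mad2 to kinetochores, fell (differences −2.68 and −2.57), and the kinetochore scaffold Knl1 fell (differences −1.29 and −1.39). Cenpk, of the inner kinetochore, rose by 1.18 and 1.06, and Cenpl rose by 0.78 and 1.44. Cenpt fell by 2.54 in Q111 cells, and its difference was −0.53 in Q7 cells (limma adjusted p = 0.174). Of 25 other spindle genes 6 were lower and 3 higher in Q7 cells, and 11 lower and 4 higher in Q111 cells. Kif22 fell (differences −1.41 and −2.34), as did Ckap5, a microtubule polymerase (−1.63 and −1.46). Kif14 was called lower in both lines, from means of 5.88 and 5.64 to means of 4.37 and 3.62 that were not above background, so no exact size is given. Pimreg fell by 2.05 in Q111 cells, and its difference was −0.72 in Q7 cells (adjusted p = 0.27).

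Of 15 genes of the anaphase-promoting complex and its regulators 6 were lower and 4 higher in Q7 cells, and 8 lower and 4 higher in Q111 cells. Anapc10, a subunit that binds substrates, rose by 1.52 and 1.11. Anapc4 fell (differences −0.99 and −0.82), as did Anapc1 (−0.97 and −1.03) and the activator gene Fzr1 (−0.67 and −1.20). Anapc2 fell by 1.78 in Q111 cells, and its difference was −0.54 in Q7 cells (limma adjusted p = 0.191). Of 19 condensin and cohesin genes 6 were lower and 3 higher in Q7 cells, and 9 lower and 3 higher in Q111 cells. Esco2, which acetylates cohesin, rose by 1.92 and 1.50, the cohesin subunit gene Smc1a fell (differences −1.27 and −1.36), and the condensin gene Ncaph fell (differences −0.77 and −1.48).

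Of 19 other kinases and phosphatases of mitotic entry 3 were lower and 1 higher in Q7 cells, and 9 lower and 4 higher in Q111 cells. Bora, the cofactor through which Aurka activates Plk1, fell, with differences of −2.50 and −2.56 (SE 0.22, limma adjusted p = 1.97e-05 and 1.09e-05). Mastl, the kinase that restrains the phosphatase opposing Cdk1, fell (differences −1.47 and −1.93). Cdkn3 fell by 1.05 in Q7 cells and differed by −0.26 in Q111 cells. Cit, the citron kinase of cytokinesis, fell by 2.76 in Q111 cells and differed by −0.66 in Q7 cells. The response of Cit differed between the lines by −2.10 (SE 0.37, adjusted p = 0.00981). The medians of these 5 lists lay between −0.26 and 0.22 in Q7 cells and between −0.40 and −0.18 in Q111 cells, and those of the Q111 cells turn positive with arrays centred on the median gene. In Q7 cells the medians of the anaphase-promoting complex and of condensin and cohesin also turn positive with that centring, and those of the spindle genes and entry kinases turn negative with ribosomal centring.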

How the data were processed

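Total RNA was read on 12 Affymetrix mouse arrays, 1 colour each, in 4 groups of 3. The authors deposited a table of log2 levels that the submitters' processing notes say come from RMA. Which software ran it, and its version, is not given in the sources used here. Of 45101 probe sets 34945 named 1 gene in the platform annotation, 932 several and 9160 none; 64 were controls, and 34741 matched by gene identifier. Each gene took its probe set with the highest mean over the 12 arrays, which left 18193 genes.

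Group means were fitted with limma 3.58.1 (R 4.3.3) without a block, with 8 residual and 3.23 prior degrees of freedom, after the test had been checked on simulated data. Calls are at a Benjamini-Hochberg adjusted p under 0.05 over all genes. Standard deviations (SD) are over 3 arrays. Every measured mitosis gene is named by role; levels per array are given for those with the largest differences in each role and for those called in opposite directions or in the difference of responses, and of other lists up to 3 called genes per comparison. The mitosis genes and all lists were chosen with earlier results of these data known. The main fit uses no pairing by replicate number. Same-numbered untreated arrays of the lines deviated together (r = 0.516, 0.402 and 0.577 over genes), and unlike-numbered ones gave −0.426 to −0.0849. The numbers, which the labels give, may therefore pair those groups. Unlike-numbered arrays can also reach such values, as heat-shocked Q7 replicate 2 and Q111 replicate 3 did (0.588). Same-numbered untreated Q7 and heat-shocked Q111 arrays, which no contrast sets directly against each other, gave 0.165, 0.222 and 0.263. In the other same-numbered pairs, r ran from −0.339 to 0.146 (heat shock in Q7 cells) and from 0.0968 to 0.241 (heat shock in Q111 cells). For the lines after heat shock it ran from −0.497 to 0.345. What a number shares is not stated. Alternatives changed the probe set rule, the filter, the scaling, the block, the variance model, array weights and an actin covariate, or left out 1 array. Promoters are RefSeq's, GRCm38.p6.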

Additional observations from a re-analysis of the deposited data

How the results depend on the processing

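For heat shock, the counts of mitosis genes lower and higher were 10 and 1 in Q7 and 5 and 11 in Q111 cells with arrays centred on the median gene, and 0 and 0, and 12 and 0, with the actin covariate. With the mean of all probe sets they were 20 and 1, and 17 and 2; calls of Anln, Racgap1, Cdc20 and Top2a in Q7 cells and of Bub1b, Racgap1 and Top2a in Q111 cells were lost. With only the groups compared they were 23 and 0, and 12 and 1; 6 of the 19 Q111 calls were lost (Ccna2, Bub1b, Cdca8, Cenpf, Racgap1 and Ube2c). The difference of responses gave 1 gene higher, Ccnb2, with median centring and with array weights. At 33 °C 1 gene was lower with median centring, and 0 with the mean of all probe sets, ribosomal centring, only the groups compared, the replicate block or the actin covariate. After heat shock 0 were lower with the mean of all probe sets, any of the scalings, only the groups compared or the replicate block, 2 with a variance trend and 3 with array weights, and 7 were higher with median centring and 2 with the mean of all probe sets, where Aurka lost its call. The replicate block changed no call of the heat shock comparisons. Leaving out 1 array gave 16 to 22 lower and 0 to 0 higher in Q7 cells, and 14 to 20 lower and 1 to 2 higher in Q111 cells. It gave 0 to 2 lower and 0 to 1 higher at 33 °C, 0 to 1 lower and 2 to 3 higher after heat shock, and 0 to 0 either way for the difference of responses. Called differences that turned sign were, in Q111 cells with median centring, Ccna2 (0.14), Bub1b (0.16), Cdca8 (0.0016), Racgap1 (0.14), Ube2c (0.21) and Pttg1 (0.039), Top2a in Q111 cells with the mean of its probe sets (0.10), and Ube2c in Q7 cells with the actin covariate (0.10). The cause was not tested, except that median centring adds the shift of the median gene to every difference. With 3 arrays a group and RMA levels alone, no limit per probe set over its background is known.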

Other observations

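Genes that act before mitosis moved in both directions after heat shock. Of 15 G1 cyclins, kinases and inhibitors, 3 were called lower and 5 higher in Q7 cells and 4 lower and 4 higher in Q111 cells by limma. All genes had 18.1% lower and 12.3% higher in Q7 cells, and 28.2% and 20.0% in Q111 cells. The counts of lower genes in both lines and of higher genes in Q111 cells were thus near the background. Cyclin E2 (Ccne2) rose by 1.97 in Q7 and 1.46 in Q111 cells, while cyclin E1 (Ccne1) fell (differences −1.67 and −0.90). The inhibitor gene Cdkn2c rose by 1.94 and 1.12, and Cdkn1a, a p53 target, rose by 1.21 and 1.59. Cdk6 fell (differences −1.67 and −2.33). Of 9 quiescence and antiproliferative genes, 0 were lower and 3 higher in Q7 cells, and 1 lower and 2 higher in Q111 cells. Btg2 rose by 2.25 and 1.53 and Tob1 by 1.15 and 1.02, both antiproliferative genes. Gadd45g rose by 0.91 in Q7 cells, and Gas1 fell by 1.15 in Q111 cells. Of the D-type cyclins at 33 °C, Ccnd1 and Ccnd2 were lower in Q111 cells, with differences (Q111 minus Q7) of −2.02 and −1.58 (limma adjusted p = 2.42e-05 and 6.24e-05), and Ccnd3 was not called (−0.28, adjusted p = 0.701).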
